A study of Mus musculus with 9 samples.

Results

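CC chemokines and their receptors were followed in RAW264.7 cells, a macrophage line derived from Abelson murine leukemia virus-induced tumours of male mice, by RNA-seq. The 10 genes are the ligands Ccl2, Ccl3, Ccl4, Ccl5, Ccl6, Ccl7, Ccl9 and Ccl22, the signalling receptor Ccr1 and the atypical receptor Ccrl2. They were taken by symbol from a table of 55401 genes, and were chosen with earlier results of these data known. Counts of these members set beside the shares of all genes are therefore descriptions. The wild-type cells received DMSO, the solvent control, DMSO with lipopolysaccharide (LPS, a component of the outer membrane of Gram-negative bacteria), or LPS with skatole (LPS + Ska). Skatole is 3-methylindole, a product of tryptophan breakdown by gut bacteria. The label of the LPS + Ska group does not name DMSO. Treatment lasted 24 h by the labels and by the study's results section, whereas its methods section gives a longer time. Each group has 3 samples, numbered 5, 6 and 7, and the labels do not say that they came from separate cultures, so the p-values below measure only the spread between these samples. The comparisons address how LPS altered the chemokine transcripts and how skatole altered them in LPS-treated cells.

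CC chemokines are small secreted proteins with a pair of adjacent cysteines, and they draw leukocytes along a gradient by binding receptors that couple to inhibitory G proteins. Macrophages stimulated through Toll-like receptors are a known source of several of them, with the transcription factor NF-κB among the known activators of their genes. Atypical receptors such as Ccrl2 bind ligands without this G protein signal, and Ccrl2 is known to hold chemerin, a chemoattractant that is not a CC chemokine, on the cell surface.

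The columns of the 2 LPS-treated groups were not independent of one another. Within 1e-05 TPM, the mean of replicates 6 and 7 was the value of replicate 5 in 17950 of 17950 genes of the LPS group with all 3 values above 0, and in 17658 of 17658 such genes of the LPS + Ska group. In the DMSO group no column did so in more than 0.0636% of genes. A gene thus has at most 2 independent values in each LPS-treated group, and its SD is that of 3 tied columns. Each limma test was repeated on 2 recovered values per group, replicate 5 plus and minus a 0.5 share of the distance to replicate 6. The sources used here do not describe the step that tied the columns. This form is inferred from the values, for example Ccl8 in LPS + Ska at 0.163, 0.490 and 0 TPM. If replicates 6 and 7 were themselves measured values, the recovered ones would understate the spread. The values are TPM (a length-scaled share of all transcripts), which allows genes to be ordered by level. Because TPM do not carry read numbers, depth is unknown and no counting interval is given. The TPM of each column summed to between 999895 and 1000145, and 12498 to 13012 genes per column reached 1 TPM.

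Of the macrophage markers, 8 of 9 reached 1 TPM, with Lyz2 at 4219 to 10210 TPM and Csf1r at 454 to 912 TPM, whereas Mrc1 stayed at or below 0.134 TPM. The summed TPM of these 9 markers was 12310 to 13270 in DMSO, 7273 to 7673 in LPS and 13560 to 13850 in LPS + Ska, and its part in the results below was not tested. Lyz2 (mean 9151, 4423 and 10060 TPM in DMSO, LPS and LPS + Ska) and Cd14 (1296, 1523 and 2218 TPM) carried most of this sum. Itgam (66.0, 61.2 and 80.7 TPM) also had a mean higher in LPS + Ska than in LPS. Csf1r (835, 522 and 467 TPM), Cd68 (839, 657 and 608 TPM), Spi1 (408, 233 and 230.2 TPM), Adgre1 (24.2, 20.7 and 19.7 TPM) and Fcgr1 (30.5, 34.1 and 22.4 TPM) had means lower in LPS + Ska than in LPS. The T cell markers Cd3e, Cd3d and Cd8a, the B cell marker Ms4a1, the neutrophil markers Ly6g and S100a9 and the epithelial markers Epcam, Krt8 and Cdh1 were listed at 0 in every column. The other markers of these lists were low, with S100a8 at 0.445 to 3.07 TPM, Cd79a up to 0.672 TPM, Mpo up to 0.569 TPM and Cd4 up to 0.049 TPM. Of the dendritic cell markers, Zbtb46 reached 1.41 TPM, Siglech 0.743 TPM, Xcr1 0.429 TPM and Flt3 0.087 TPM, with a summed level of 0.998 to 1.79 TPM in DMSO, 0.445 to 1.42 TPM in LPS and 0.554 to 1.77 TPM in LPS + Ska. The fibroblast markers stayed at or below 0.034 TPM. In bulk RNA, fewer cells that express a gene and less RNA per cell cannot be told apart.

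The members lie at 5 places in the genome (GRCm38, which is mm10; GENCODE M21). Ccl2 (chr11:82035571-82037453, plus strand) and Ccl7 (chr11:82045712-82047525, plus strand) are neighbours within 11.96 kb. A second group on the same chromosome, within 138.9 kb, holds Ccl5 (chr11:83525778-83530518), Ccl9 (chr11:83572919-83578636), Ccl6 (chr11:83587882-83593087) and Ccl3 (chr11:83647844-83649355) on the minus strand and Ccl4 (chr11:83662584-83664683) on the plus strand. Ccl22 is at chr8:94745590-94751699 on the plus strand, and Ccr1 (chr9:123962124-123968692) and Ccrl2 (chr9:111054486-111057519) are on the minus strand of chromosome 9. Of the 50-base stretches in the annotated transcripts, 59 of 2996 (1.97%) of Ccl9 also occur in other genes, 250 of them in all. For the other 9 members, 0 stretches do. Ccl2 is overlapped on the opposite strand by Gm17268, which was listed at 0 in every column. Ccl6 is overlapped on the opposite strand by E230016K23Rik, at 0 to 0.466 TPM. Whether the counting used strand is not given in the sources used here, so reads of an overlapping pair cannot be told apart.

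RefSeq promoter sequences (GRCm38.p6) were found for 6 of the 10 members. None was found for Ccl2, Ccl4, Ccl5 and Ccl7, so the windows leave out Ccl5, which fell most with skatole. Those of Ccl22, Ccr1 and Ccrl2, whose levels were lower with skatole, are shown with those of Ccl9 and Ccl3, which were not, so that the letters before their start sites can be set side by side. Each is the 250 bases that end just before the most upstream RefSeq start, read 5′ to 3′ on the gene's own strand. Capitals mark matches, on either strand, to GGG, any 5 bases and CC (a loose form of the NF-κB motif), GGACTTTCC (a strict form, whose matches here lie inside a loose one) or TGANTCA (the AP-1 motif).
Ccl22: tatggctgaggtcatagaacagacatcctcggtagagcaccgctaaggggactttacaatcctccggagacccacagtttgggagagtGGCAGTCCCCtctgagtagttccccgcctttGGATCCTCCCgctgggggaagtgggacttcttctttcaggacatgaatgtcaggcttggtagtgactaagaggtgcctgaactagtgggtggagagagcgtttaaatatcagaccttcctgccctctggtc
Ccr1: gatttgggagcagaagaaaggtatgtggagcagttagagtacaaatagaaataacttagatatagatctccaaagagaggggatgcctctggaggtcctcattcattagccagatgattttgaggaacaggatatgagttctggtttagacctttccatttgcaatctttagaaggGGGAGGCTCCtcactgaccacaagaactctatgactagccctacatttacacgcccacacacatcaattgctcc
Ccrl2: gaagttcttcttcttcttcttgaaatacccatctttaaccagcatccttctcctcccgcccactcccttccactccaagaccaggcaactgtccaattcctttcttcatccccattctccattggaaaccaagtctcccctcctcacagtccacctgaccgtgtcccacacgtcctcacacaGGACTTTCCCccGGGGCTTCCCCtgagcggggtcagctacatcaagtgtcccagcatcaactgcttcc
Ccl9: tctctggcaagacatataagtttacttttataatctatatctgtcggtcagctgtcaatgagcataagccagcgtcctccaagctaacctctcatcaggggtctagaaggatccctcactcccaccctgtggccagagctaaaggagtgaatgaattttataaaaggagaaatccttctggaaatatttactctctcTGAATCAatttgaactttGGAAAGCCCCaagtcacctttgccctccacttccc
Ccl3: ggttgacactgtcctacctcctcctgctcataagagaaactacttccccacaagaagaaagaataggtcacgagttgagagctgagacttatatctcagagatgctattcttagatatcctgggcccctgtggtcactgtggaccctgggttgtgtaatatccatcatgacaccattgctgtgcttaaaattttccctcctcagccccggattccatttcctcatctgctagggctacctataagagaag

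These windows are chr8:94745434-94745683 (plus strand) for Ccl22 and, on the minus strand, chr9:123968693-123968942 for Ccr1, chr9:111057519-111057768 for Ccrl2, chr11:83578637-83578886 for Ccl9 and chr11:83649379-83649628 for Ccl3. The Ccl22 window runs past the GENCODE M21 start of the gene, at 94745590. Positions below are therefore relative to the RefSeq start alone. The Ccrl2 window held 3 loose NF-κB matches, from positions -68, -56 and -55 before the start, where the last 2 overlap each other and the strict match shares the first. The Ccl22 window held 2 loose matches, at -162 and -131, and the Ccr1 window held 1, at -74. Ccl9 had 1 loose match at -35 and an AP-1 match at -53, and the windows of Ccl3 and Ccl6 held none of these motifs. Of 32851 promoter windows of the same length, 45.8% held the loose motif, 0.283% the strict one and 6.75% the AP-1 motif, and 2.98% held GAAA, any 2 bases and GAAA (an IRF motif), which no member's window had. A match describes letters and not a bound site.

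**Figure D1:**
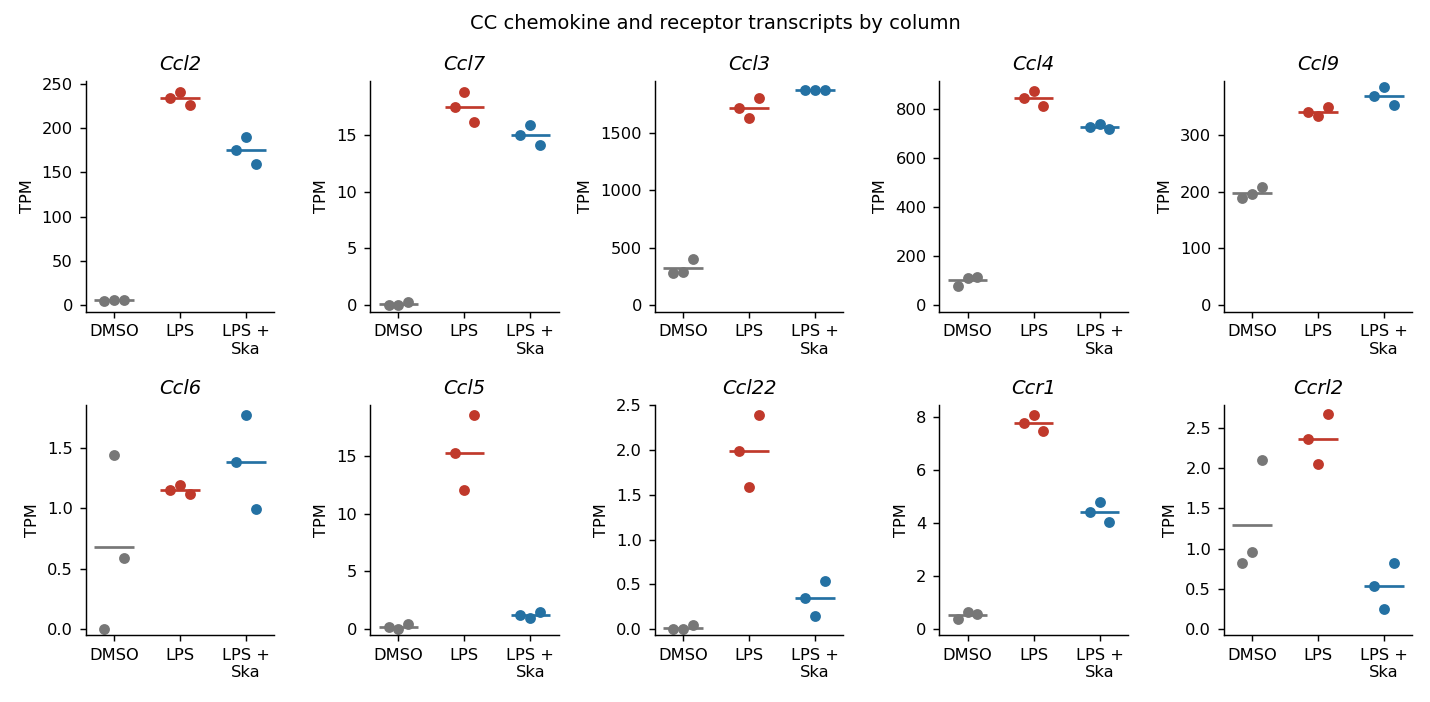
TPM of the 10 members in each column (points, replicates 5, 6 and 7 from left to right in each group) with the group mean (line), on a separate linear axis for each gene. In LPS + Ska, Ccl5 lay at 0.962 to 1.49 TPM, above all DMSO columns but nearer to them than to LPS, and Ccrl2 reached no more than 0.820 TPM.

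Most of the members that were tested rose with LPS. Of the 9 members with a mean of at least 1 TPM over the 9 columns, 7 rose (Ccl2, Ccl3, Ccl4, Ccl5, Ccl7, Ccl9 and Ccr1) and none fell, where a call needed an adjusted p below 0.05 with the fold change outside 0.67 to 1.5. Of all 12819 genes tested, 12.7% were called higher in LPS than in DMSO and 20% lower. The median log2 fold change was 2.53 over the 9 members and -0.067 over all genes tested. Of the 9, 4 (Ccl5, Ccl6, Ccl7 and Ccr1) had a mean below 1 TPM in DMSO and passed the TPM limit through the LPS-treated columns, so the limit itself favours a rise in them, and the count and median are descriptions. With no limit on TPM, 8 of the 10 members were called. In all 7 the columns of the groups did not overlap, which was so for 30.3% of all genes in the higher and 38.6% in the lower direction. Fold changes are on the log2(TPM + 1) scale, which understates the change of genes near 0, with limma's adjusted p.

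The neighbours Ccl2 and Ccl7 are ligands of Ccr2 that draw monocytes. Ccl2 was at 4.64, 6.30 and 5.82 TPM in DMSO, 234, 241 and 226 TPM in LPS and 175, 190.2 and 159 TPM in LPS + Ska, in the order of replicates 5, 6 and 7. The LPS columns thus stood highest and no columns of different groups overlapped. Ccl2 rose with LPS by 5.16 on the log2 scale (SE 0.10, adjusted p = 1.65e-09), a 41.8-fold ratio of the mean TPM. Ccl7 was listed at 0 TPM in DMSO replicates 5 and 6 and at 0.256 TPM in replicate 7, against 17.5, 18.8 and 16.2 TPM in LPS and 14.99, 15.9 and 14.1 TPM in LPS + Ska. Its log2 fold change with LPS was 4.10 (SE 0.12, adjusted p = 2.56e-08), and no ratio is given against DMSO columns listed at 0.

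Between the LPS-treated groups the neighbours were closer. Ccl2 was lower in LPS + Ska than in LPS by a log2 fold change of -0.42 (SE 0.10, adjusted p = 0.0138, and 0.0493 with recovered values), but the 0.748-fold ratio lay inside the fold limit of 0.67, so it was not called. Over the other settings its adjusted p ran from 0.00476 to 0.0922, above 0.05 without LPS replicate 5 (0.053), LPS replicate 6 (0.0508) or LPS + Ska replicate 5 (0.0512). For Ccl7 the log2 fold change was -0.21 (95% confidence interval -0.48 to 0.069, adjusted p = 0.235). The log2 ratio of Ccl2 to Ccl7 within a column, taken on TPM + 1, was 3.67 ± 0.056 in LPS and 3.46 ± 0.047 in LPS + Ska (SD, n = 3 columns). This difference of -0.21 had p = 0.1 in an exact two-sided permutation test, the smallest p that 3 against 3 columns allow, and 0.15 after adjustment over 12 such ratio tests. These tests count the tied columns as 3 values, and 2 independent values against 2 could not go below p = 0.333 in an exact permutation test.

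Ccl3, a ligand of Ccr1, and Ccl4, both macrophage inflammatory proteins that draw leukocytes, were the most abundant members after LPS. Ccl3 was at 277, 290.5 and 403 TPM in DMSO, 1716, 1628 and 1803 TPM in LPS and 1869, 1870 and 1869 TPM in LPS + Ska. The LPS + Ska columns were thus the highest, just above the LPS columns. Ccl4 was at 79.2, 111 and 115 TPM in DMSO, 842, 873 and 811 TPM in LPS and 726, 736 and 716 TPM in LPS + Ska, so here the LPS columns were the highest. With LPS, Ccl3 rose by 2.42 (SE 0.12, adjusted p = 4.25e-07) and Ccl4 by 3.06 (SE 0.12, adjusted p = 1.1e-07) on the log2 scale, 5.30-fold and 8.28-fold in mean TPM.

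Neither passed the test between LPS + Ska and LPS. On the log2 scale the difference was 0.12 for Ccl3 (95% confidence interval -0.15 to 0.40, adjusted p = 0.467) and -0.21 for Ccl4 (-0.48 to 0.056, adjusted p = 0.212), although the columns did not overlap for either gene. These intervals, from the tied columns, leave out a change by 1.5-fold in either direction. Over the other settings the adjusted p ran from 0.0835 to 0.689 for Ccl3 and from 0.0101 to 0.643 for Ccl4, always inside the fold limits. The log2 ratio of Ccl3 to Ccl4 within a column was 1.66 ± 0.24 in DMSO, 1.03 ± 0.13 in LPS and 1.36 ± 0.020 in LPS + Ska (SD, n = 3 columns). The ratio was 0.34 higher in LPS + Ska than in LPS, without overlap (exact two-sided permutation p = 0.1, the smallest possible, adjusted p = 0.15).

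Ccl9 and Ccl6, ligands of Ccr1 found in rodents, lie next to each other and differed widely in level. Ccl9 was at 189, 196 and 208 TPM in DMSO, 341, 334 and 348 TPM in LPS and 369, 385 and 353 TPM in LPS + Ska. It was the second most abundant member in DMSO, and it rose less with LPS than the other 6 called members, by 0.79 on the log2 scale (SE 0.054, adjusted p = 2.9e-06), or 1.73-fold. Between LPS + Ska and LPS its log2 fold change was 0.11 (95% confidence interval -0.0081 to 0.23, adjusted p = 0.148). After median-ratio scaling it was 0.21 (adjusted p = 0.00453), within the fold limit. Ccl6 was at 0, 1.44 and 0.589 TPM in DMSO, 1.15, 1.19 and 1.12 TPM in LPS and 1.38, 1.77 and 0.991 TPM in LPS + Ska. The 3 groups of Ccl6 columns overlapped, and no comparison passed the test, with log2 fold changes of 0.45 for LPS against DMSO (adjusted p = 0.204) and 0.13 for LPS + Ska against LPS (adjusted p = 0.767). Without DMSO replicate 6, Ccl6 was called higher in LPS than in DMSO (0.77, adjusted p = 0.0216, in a range of 0.0216 to 0.636 over the settings).

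Among LPS-treated cells, some of these transcripts were lower with skatole. Of the 9 members tested, 3 fell (Ccl5, Ccr1 and Ccrl2) and none rose in LPS + Ska against LPS, Ccrl2 with a mean below 1 TPM in LPS + Ska, where 6.14% of all genes were called lower and 3.35% higher. Of the called genes 35.3% were higher, and 52% after median-ratio scaling of the columns. The median log2 fold change was -0.21 over the 9 members and -0.096 over all genes tested. In DMSO, LPS and LPS + Ska, Ccl5 had means of 0.197, 15.3 and 1.23 TPM, and Ccrl2 1.29, 2.36 and 0.534 TPM. Both passed the TPM limit through the LPS columns, so the limit itself favours a fall in them. The count and median are thus descriptions. Columns did not overlap in 6 members in the lower direction, which was so for 34% of all genes, and in 2 in the higher direction, which was so for 17.2%. With recovered values Ccl5, Ccr1 and Ccrl2 were again the 3 called.

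**Figure D2:**
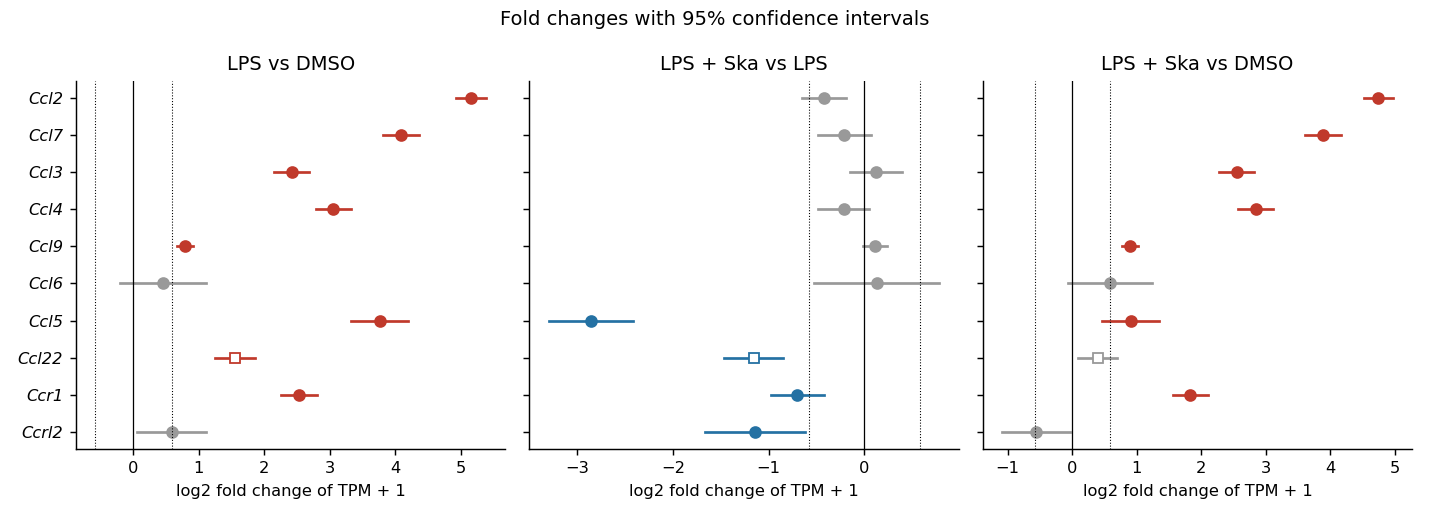
Log2 fold change of TPM + 1 (x axis) with its 95% confidence interval for each member in the 3 comparisons, the vertical dotted lines marking a fold change of 1.5 and 0.67. Red is called higher, blue called lower and grey not called, and open squares are Ccl22, which came from a fit with no TPM limit. In LPS + Ska against LPS, Ccl5 at -2.86 and Ccl22 at -1.16 lie below the other ligands, which are between -0.42 and 0.13.

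Ccl5, a ligand of Ccr1 that draws T cells and monocytes, differed most among the members between the LPS-treated groups. Its TPM were 0.162, 0 and 0.429 in DMSO, 15.3, 12.1 and 18.6 in LPS and 1.23, 0.962 and 1.49 in LPS + Ska. All LPS columns lay far above the LPS + Ska columns, which in turn lay above those of DMSO. The log2 fold change with LPS was 3.76 (SE 0.19, adjusted p = 5.24e-07). In LPS + Ska the mean TPM was 0.080 times that of LPS, a log2 fold change of -2.86 (SE 0.19, adjusted p = 2.81e-05, and 0.000483 with recovered values), and it ran from -3.53 to -2.72 over the 21 other settings. Against DMSO, Ccl5 remained higher in LPS + Ska by 0.90 on the log2 scale (SE 0.19, adjusted p = 0.00271).

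Ccl22, a ligand of Ccr4 made by macrophages and dendritic cells, had a mean below 1 TPM and was tested only in a fit with no limit on TPM, which was chosen after the data were seen. It was listed at 0, 0 and 0.040 TPM in DMSO, at 1.99, 1.59 and 2.39 TPM in LPS and at 0.343, 0.148 and 0.537 TPM in LPS + Ska, so the groups did not overlap. In that fit it rose with LPS by 1.55 on the log2 scale (SE 0.13, adjusted p = 0.000112) and was lower in LPS + Ska than in LPS, by a log2 fold change of -1.16 (SE 0.13, adjusted p = 0.00113). Its mean TPM in LPS + Ska was 0.172 times that in LPS. LPS + Ska against DMSO gave 0.40 (adjusted p = 0.0506).

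Both receptors among the members were lower with skatole. Ccr1, the receptor for Ccl3, Ccl5, Ccl6, Ccl7 and Ccl9, was at 0.372, 0.635 and 0.573 TPM in DMSO, 7.79, 8.08 and 7.49 TPM in LPS and 4.42, 4.80 and 4.04 TPM in LPS + Ska. The LPS + Ska columns lay between the other groups with no overlap. It rose with LPS by 2.53 on the log2 scale (SE 0.12, adjusted p = 3.76e-07), or 14.8-fold, and the LPS + Ska mean was 0.568 times that of LPS, a log2 fold change of -0.70 (SE 0.12, adjusted p = 0.0033, and 0.0298 with recovered values). Ccr1 was still higher than in DMSO, by 1.83 (adjusted p = 2.09e-06).

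The atypical receptor Ccrl2 was at 0.820, 0.961 and 2.10 TPM in DMSO, 2.36, 2.05 and 2.67 TPM in LPS and 0.534, 0.248 and 0.820 TPM in LPS + Ska. The LPS columns overlapped the DMSO columns through DMSO replicate 7, while LPS + Ska lay below LPS in every column. LPS against DMSO gave a log2 fold change of 0.59 (SE 0.23, adjusted p = 0.0523) and was not called. Without DMSO replicate 7 it was called higher (0.83, adjusted p = 0.00717, in a range of 0.00717 to 0.15 over the settings). In LPS + Ska against LPS, Ccrl2 fell by 1.14 on the log2 scale (SE 0.23, adjusted p = 0.00683, and 0.0325 with recovered values), its mean TPM being 0.227 times that in LPS. These levels are near 1 TPM. Against DMSO, Ccrl2 in LPS + Ska stood at -0.56 on the log2 scale (adjusted p = 0.0618) and was not called. The log2 ratio of Ccr1 to Ccrl2 within a column was 1.39 ± 0.18 in LPS and 1.84 ± 0.37 in LPS + Ska (SD, n = 3 columns), an overlapping difference of 0.44 on TPM + 1 (exact two-sided permutation p = 0.2, adjusted p = 0.267). The size of this difference depends on the constant added, being 1.25 with 0.1 added. With nothing added, a setting chosen after the data were seen, the log2 ratio was 1.49 to 1.98 in LPS and 2.30 to 4.27 in LPS + Ska, without overlap.

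Relative to DMSO, 7 of the 9 tested members were higher in LPS + Ska and none was lower, where 11.4% of all genes were called higher and 25.3% lower. This comparison shares its control columns with LPS against DMSO. Ccl5, Ccl6, Ccl7 and Ccr1 had a mean below 1 TPM in DMSO, so the TPM limit favours a rise in them here too. The count is thus a description. The log2 fold changes were 4.74 for Ccl2, 3.89 for Ccl7, 2.55 for Ccl3, 2.84 for Ccl4, 0.90 for Ccl9, 0.90 for Ccl5 and 1.83 for Ccr1, and adjusted p was at most 0.00271 for each. Ccl6, at 0.59 on the log2 scale (adjusted p = 0.107), was not called.

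The order of the members by TPM changed between groups. In DMSO it ran Ccl3, Ccl9, Ccl4 and Ccl2, without overlap of columns, and then Ccrl2, Ccl6, Ccr1, Ccl5, Ccl7 and Ccl22, whose neighbours in this order all overlapped. In LPS the order was Ccl3, Ccl4, Ccl9, Ccl2, Ccl7, Ccl5, Ccr1, Ccrl2, Ccl22 and Ccl6, with overlap between Ccl7 and Ccl5 and between Ccrl2 and Ccl22. In LPS + Ska the first 5 places were held by the same genes as in LPS, followed by Ccr1, Ccl6, Ccl5, Ccrl2 and Ccl22. Here Ccl6 overlapped Ccl5, and Ccrl2 overlapped Ccl22.

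The summed TPM of the 23 CC ligand genes in the table was set by few of them. It was 639 ± 94.2 in DMSO, 3179 ± 59.4 in LPS and 3170 ± 43.8 in LPS + Ska (SD, n = 3 columns), and the columns of the LPS-treated groups overlapped, at 3120 to 3239 and 3126 to 3214. The makeup of this sum differed. Ccl3 made up 50.3% ± 3.52 of it in DMSO, 53.9% ± 1.76 in LPS and 59.0% ± 0.803 in LPS + Ska, and Ccl4 15.9% ± 1.96, 26.5% ± 1.47 and 22.9% ± 0.0049. The share of Ccl9 was 31.2% ± 2.93, 10.7% ± 0.025 and 11.6% ± 0.34, and that of Ccl2 was 0.879% ± 0.13, 7.35% ± 0.38 and 5.51% ± 0.41. Ccl5 made up 0.480% of the sum in LPS and 0.039% in LPS + Ska, so its change hardly moved the sum. No test was run on the shares.

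**Figure D3:**
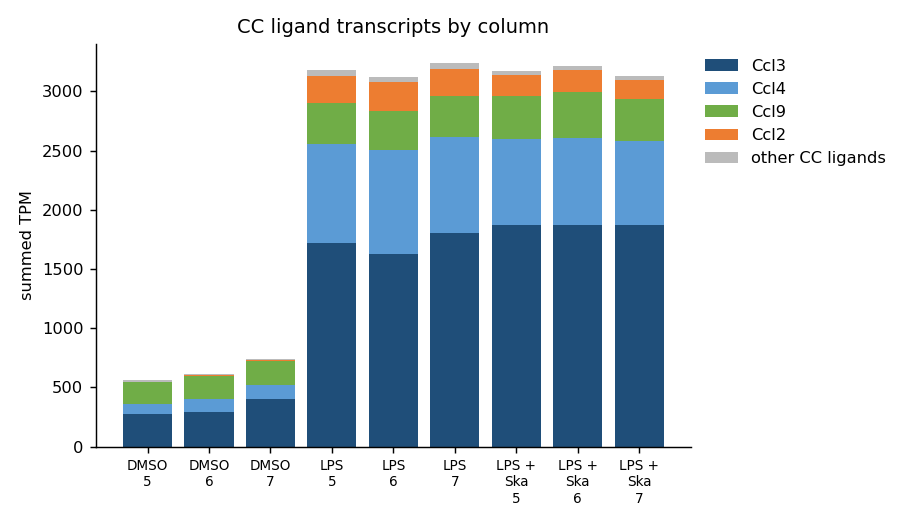
Summed TPM of the 23 CC ligand genes (y axis, from 0) in each of the 9 columns, with the parts of Ccl3, Ccl4, Ccl9, Ccl2 and the other ligands stacked. The LPS and LPS + Ska columns are of like height, between 3120 and 3239, against 559.6 to 743 in DMSO.

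The rest of the CC family was mostly at 0 or low. Of 41 CC ligand, CC receptor and related receptor genes, 16 were listed at 0 in every column, 12 others had a mean below 1 TPM, and 13 were tested. Besides the 9 members these were Ccl25, Ccr2, Ccr10 and Cx3cr1. Ccl25, a ligand of Ccr9, was between 9.48 and 12.7 TPM over all columns, and the columns of different groups did not overlap. Its log2 fold change was 0.12 in LPS against DMSO (adjusted p = 0.212) and 0.15 in LPS + Ska against LPS (adjusted p = 0.187). In LPS + Ska against DMSO it was 0.27 (adjusted p = 0.0136), inside the fold limit and so not called. Ccr2, the receptor for Ccl2 and Ccl7, was at 3.19 ± 0.63 TPM in DMSO, 2.85 ± 0.20 TPM in LPS and 3.83 ± 0.041 TPM in LPS + Ska (SD, n = 3 columns), and no comparison passed the test (adjusted p = 0.499, 0.099 and 0.186 for LPS against DMSO, LPS + Ska against LPS and LPS + Ska against DMSO). Ccr10, a receptor for epithelial CC ligands, fell with LPS from 5.13 ± 0.50 to 1.64 ± 0.43 TPM (log2 fold change -1.22, adjusted p = 0.000122) and was at 1.77 ± 0.22 TPM in LPS + Ska (0.079 against LPS, adjusted p = 0.735).

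Cx3cr1, the receptor for fractalkine, went opposite to Ccr1. It was at 153, 134.5 and 144 TPM in DMSO, 14.8, 16.2 and 13.4 TPM in LPS and 34.3, 39.2 and 29.5 TPM in LPS + Ska. The LPS columns were the lowest, without overlap. Cx3cr1 fell by 3.20 on the log2 scale with LPS (SE 0.11, adjusted p = 5.17e-08) and rose by 1.16 in LPS + Ska against LPS (SE 0.11, adjusted p = 0.000158). It remained below DMSO (-2.04, adjusted p = 6.48e-07). For LPS + Ska against LPS, recovered values gave a limma adjusted p of 0.000634.

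Genes related to chemokine action were read from 3 lists: receptor coupling and desensitisation, chemotaxis effectors, and chemokine processing and surface binding. Of 21 tested genes for receptor coupling and desensitisation, 2 rose and 8 fell with LPS (median -0.53), and 0 rose and 2 fell in LPS + Ska against LPS (median -0.12). The shares were 9.52% higher and 38.1% lower with LPS, against 12.7% and 20% of all genes, and 0% and 9.52% in LPS + Ska against LPS, against 3.35% and 6.14%. The 2 were Rgs16 and Rgs2, which speed up GTP hydrolysis by G protein alpha subunits. Rgs16 was at 0.412 ± 0.26 TPM in DMSO, 24.3 ± 0.15 TPM in LPS and 4.36 ± 0.59 TPM in LPS + Ska (SD, n = 3 columns). Against LPS this was -2.24 on the log2 scale (adjusted p = 2.62e-05). For Rgs2 the values were 94.1 ± 3.32, 37.5 ± 1.84 and 19.0 ± 0.66 TPM, and -0.94 (adjusted p = 2.56e-05). With recovered values the limma adjusted p against LPS was 0.000713 for Rgs16 and 0.000488 for Rgs2.

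Of 21 chemotaxis effectors, all tested, 2 rose and 5 fell with LPS (median -0.14), and 0 rose and 3 fell in LPS + Ska against LPS (median -0.075). That is 9.52% and 23.8% with LPS and 0% and 14.3% in LPS + Ska against LPS, beside the same shares of all genes. Tiam1, an activator of Rac, was at 3.24 ± 1.54 TPM in DMSO, 8.20 ± 0.41 TPM in LPS and 3.18 ± 0.32 TPM in LPS + Ska (log2 fold change against LPS -1.14, adjusted p = 0.00456). Elmo1, which works with Dock proteins to activate Rac, was at 47.9 ± 2.03, 53.2 ± 0.32 and 33.5 ± 5.32 TPM (-0.67, adjusted p = 0.00173). Its call was lost after median-ratio scaling (-0.57) and without LPS + Ska replicate 7 (-0.55). The remaining gene, Dock2, named after its values were seen, had -0.61. Recovered values gave a limma adjusted p against LPS of 0.0283 for Tiam1 and 0.00395 for Elmo1.

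Of 12 tested genes for chemokine processing and surface binding, 2 rose and 1 fell with LPS (median -0.14), and 2 rose and 1 fell in LPS + Ska against LPS (median 0.049). The shares of 16.7% higher and 8.33% lower, equal in both comparisons, rest on 1 or 2 genes. Of all genes, 12.7% were higher and 20% lower with LPS, and 3.35% and 6.14% in LPS + Ska against LPS. Mmp12, the macrophage elastase, whose known substrates include chemokines, rose from 3.26 ± 0.12 TPM in LPS to 10.4 ± 1.35 TPM in LPS + Ska (log2 fold change 1.42, adjusted p = 0.000131) from 0.0064 TPM in DMSO. The gelatinase Mmp9 fell from 16.7 ± 0.95 to 8.88 ± 0.068 TPM (-0.84, adjusted p = 0.00102), against 0.188 ± 0.13 TPM in DMSO. With a pseudocount of 0.1 Mmp9 was at -0.90 (SE 0.33, adjusted p = 0.0737). Recovered values gave a limma adjusted p against LPS of 0.00246 for Mmp12 and 0.0135 for Mmp9. The other gene called higher, the heparan sulfate proteoglycan Sdc4, named after its values were seen, had 0.66. Over all genes tested the medians were -0.067 for LPS against DMSO and -0.096 for LPS + Ska against LPS.

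**Figure D4:**
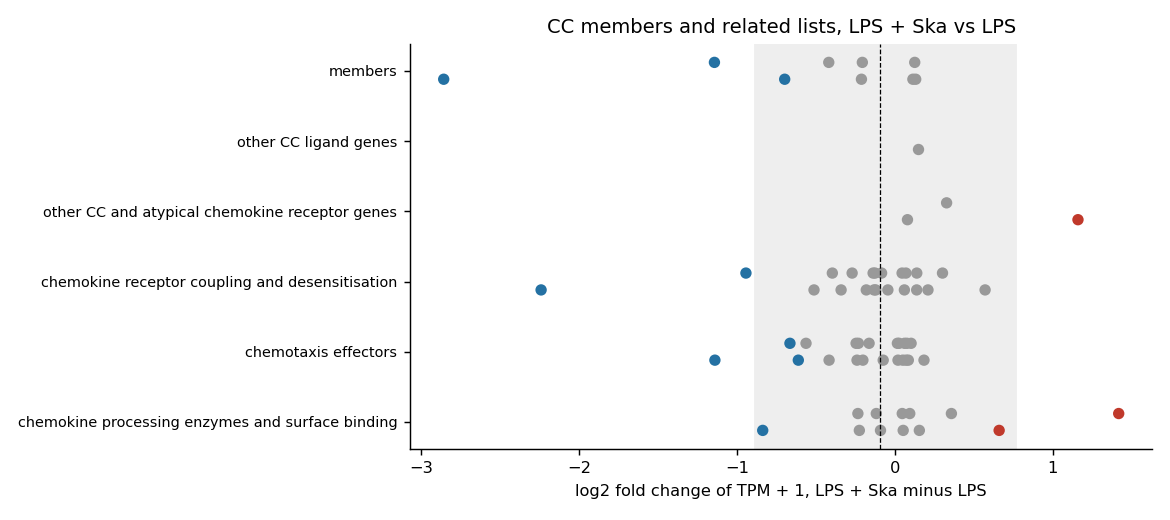
Log2 fold change of TPM + 1 in LPS + Ska against LPS (x axis) for each tested gene (points, spread vertically for legibility) of the members and the 5 related lists. Blue points were called lower and red ones higher, the dashed line is the median of all 12819 genes (-0.096) and the shaded band holds the central 95% of them (-0.89 to 0.77). Ccl5 at -2.86 and Rgs16 at -2.24 lie farthest to the left.

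The genes whose pair of log2 fold changes (LPS against DMSO, LPS + Ska against LPS) lay nearest to those of Ccl5, Ccr1 and Ccrl2, the members called in LPS + Ska against LPS, were found by Euclidean distance. These comparisons share the LPS columns, and the patterns cover 3 groups, so nearness describes these samples alone. Nearest to Ccl5 were Gm26377 (distance 0.704), Myo1h, a myosin (0.739), and Rgs16 (0.743), none of them close. Nearest to Ccr1 were Upp1, uridine phosphorylase (0.139), the microRNA gene Mir763 (0.167) and Prkca, protein kinase C alpha (0.187). Mir763 lost its call in LPS + Ska against LPS in several settings, for example with recovered values (limma adjusted p = 0.0576). Nearest to Ccrl2 were Cntln (0.011), Focad (0.042) and Fbxl17 (0.048), for example Cntln with log2 fold changes of 0.60 and -1.13.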

How the data were processed

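The RNA-seq samples were RAW264.7 cells given DMSO, LPS or LPS + Ska (3 each), and the authors deposited TPM per gene for 55401 Ensembl identifiers. The submitters' processing notes name fastp 0.20.1, HISAT2 2.2.1, StringTie 2.0 and build mm10. TPM are relative within a column and their depth is unknown. Gene symbols matched 55141 identifiers in a reference table.

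The log2(TPM + 1) values of all 9 columns were fitted by limma 3.58.1 (R 4.3.3; lmFit, then eBayes allowing a trend with intensity) for the 12819 genes of mean TPM at least 1. A call needed a Benjamini-Hochberg adjusted p below 0.05 with the fold change outside 0.67 to 1.5. The code was tested on simulated data. The deposited columns were used as they stand, including the tied ones, and recovered values served as an alternative. Loci came from GENCODE M21 and promoters from RefSeq, both on GRCm38. Figures were drawn with matplotlib 3.10.9.

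The genes named are the 10 members, every other CC ligand or receptor gene of mean TPM at least 1, the 2 largest called changes of each further list in LPS + Ska against LPS, and the 3 genes nearest in pattern to each member called in that comparison. Members and lists were chosen with earlier results of these data known. Alternatives changed the pseudocount, TPM limit, scaling, call limits, samples fitted, trend, replicate block and columns, and left out each column in turn.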

Additional observations from a re-analysis of the deposited data

How the results depend on the processing

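The values rest on tied columns, on TPM without depth and on samples not stated to be separate cultures, and below about 1 TPM the added pseudocount sets much of a fold change. The count of CC members called was 7 to 8 for LPS against DMSO, 3 for LPS + Ska against LPS and 7 to 8 for LPS + Ska against DMSO with each column omitted. With a mean TPM limit of 5 the count for LPS + Ska against LPS was 1, because Ccr1 and Ccrl2 were then no longer tested, and 516 genes were called lower. At a fold change of at least 2, Ccr1 lost its call there, Ccl9 lost its calls against DMSO and Ccl5 its call in LPS + Ska against DMSO. Ccrl2 was called higher in LPS than in DMSO after median-ratio scaling (0.63, adjusted p = 0.0364), after rescaling without mitochondrial-genome and ribosomal protein genes (0.66, 0.0459), without the intensity trend (0.0411), and without LPS + Ska replicate 6 (0.0453) or 7 (0.049), and lower in LPS + Ska than in DMSO without DMSO replicate 5 (-0.70, 0.0347) or LPS + Ska replicate 7 (-0.69, 0.0419), and in that comparison adjusted p ranged from 0.0286 to 0.187. Ccl6 was called higher in LPS + Ska than in DMSO without DMSO replicate 6 (0.90, 0.0101), and so was Ccl22 with a pseudocount of 0.1 (1.88, 0.00618). The cause of these changes was not tested.

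Over all genes, an adjusted p alone gave 3354 higher and 4380 lower in LPS against DMSO, 1139 and 2524 in LPS + Ska against LPS, and 2915 and 5201 in LPS + Ska against DMSO, and a fold change of at least 2 gave 547 and 928, 142 and 199, and 519 and 1234. Recovered values with median-ratio scaling gave 438 lower in LPS + Ska against LPS. Median-ratio scaling moved the median log2 fold change of all genes from -0.096 to -0.0046 in LPS + Ska against LPS and from -0.18 to -0.013 in LPS + Ska against DMSO. The share of called genes that were higher went from 38.9% to 47.8% in LPS against DMSO and from 31% to 48.4% in LPS + Ska against DMSO. Leaving out a column gave 316 to 503 genes higher and 576 to 996 lower in LPS + Ska against LPS.

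Ccr10 in LPS + Ska against LPS ran from -0.044 (without LPS replicate 6) to 0.19 as columns were left out, and Tiam1 in LPS + Ska against DMSO from -0.12 to 0.32, below 0 without DMSO replicate 5 (-0.089), DMSO replicate 6 or LPS + Ska replicate 6 (-0.021). With a pseudocount of 0.1 the log2 ratio of Ccl2 to Ccl7 was lower than in DMSO, by -1.47 in LPS and -1.68 in LPS + Ska, and that of Ccl6 to Ccl9 was higher, by 0.61 and 0.71, Ccl7 and Ccl6 being listed at 0 in some DMSO columns. With columns left out, the difference in the Ccl6 to Ccl9 ratio ran from -0.067 to 0.11 between LPS + Ska and LPS, -0.0094 without LPS replicate 7, and from -0.61 to 0.0088 between LPS + Ska and DMSO.

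Replicate numbers recur in each group, but only the numbers are shared in the labels, so no pairing was assumed. Deviations of same-numbered columns correlated at 0.128 to 0.384 between LPS and LPS + Ska, whose columns share the tied form, and at -0.032 to 0.0801 for the other pairs of groups. A fit with a replicate block called 4235, 1198 and 4729 genes, against 4189, 1216 and 4700 without it, in LPS against DMSO, LPS + Ska against LPS and LPS + Ska against DMSO. Among the members the block changed 1 call, Ccrl2 in LPS against DMSO (adjusted p = 0.0244).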
